A study of Homo sapiens with 18 samples.

Results

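Long non-coding RNAs are transcripts that are processed much like messenger RNA but carry no known protein. The 150 most abundant of them in THP-1 macrophage-like cells are described here. Members were chosen by level alone: all genes that GENCODE release 29 types as lincRNA (lying between protein-coding genes) or antisense (lying across one, on the other strand) were ranked by mean CPM (reads scaled to each library's total of gene-assigned reads) over 18 libraries, and the highest 150 were taken. They are 67 lincRNA and 83 antisense genes, out of 12732 genes of these types in the count tables, of which 7252 had at least 1 read, and out of 58051 genes in all. At the edge of the list, AC090559.1 (7.94 CPM), AC100810.1 (7.94 CPM) and AC012313.1 (7.75 CPM) were the last inside, and AC007384.1 (7.67 CPM), TNFRSF14-AS1 (7.67 CPM) and PAXIP1-AS1 (7.55 CPM) the first outside. All 150 passed the filter on low counts and entered every test. Because level chose them, their levels are given as a description and without a test. That level counts the IL-4 libraries too, so a gene can enter the list through a rise with IL-4. Counts of members that rose are therefore not fully independent of the choice.

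The study raised or lowered Notch signalling in cells given IL-4. The cells, the established monocytic leukaemia line THP-1, were transduced with 1 of 3 GFP-bearing retroviral vectors: IRES (the empty MSCV-GFP-IRES), NIC1 (MYC-tagged intracellular NOTCH1, the active form of the receptor) or DNMAML (a dominant-negative Mastermind-like protein, which blocks the Notch transcription complex). GFP+ cells were sorted, and all 6 groups received PMA, a phorbol ester that makes THP-1 cells macrophage-like, at 5 ng/ml for 48 h. They were then left unstimulated or given IL-4 at 20 ng/ml for 3 h, so that every group, controls included, carries a retroviral vector and PMA treatment in a leukaemia line. Each of the 6 groups holds 3 libraries, from experiments numbered 1, 2 and 3.

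Long non-coding RNAs act in several ways. Some build or occupy nuclear structures, as MALAT1 in nuclear speckles and NEAT1 in paraspeckles do, and NORAD binds Pumilio proteins in the cytoplasm. Others are host transcripts, from which microRNAs or small nucleolar RNAs are cut, or are transcribed away from the promoter of a coding gene (divergent transcripts, often named with DT). IL-4 acts on macrophages through the factor STAT6, and NOTCH1's intracellular domain acts on DNA through the factor RBPJ.

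By position, 14 of these genes hold at least 1 microRNA gene on their own strand, with 37 mature microRNAs between them; the sequences below belong to hosts that differed with IL-4, with construct or between experiments, and to DLEU2, shown for its seed. Mature microRNAs were not measured in these libraries, which read the host transcript. Sequences are from RefSeq (GRCh38.p14), written 5′ to 3′, with the seed (bases 2 to 8, which chooses targets) in capitals.
MIR503HG, miR-503-5p: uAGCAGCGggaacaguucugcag
DLEU2, miR-15a-5p: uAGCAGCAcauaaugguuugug
DLEU2, miR-16-5p: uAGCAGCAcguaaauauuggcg
MIR222HG, miR-221-3p: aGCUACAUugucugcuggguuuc
MIR222HG, miR-222-3p: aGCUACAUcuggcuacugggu
MIR34AHG, miR-34a-5p: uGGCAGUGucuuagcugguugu
DNM3OS, miR-199a-5p: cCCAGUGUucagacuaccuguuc
DNM3OS, miR-214-3p: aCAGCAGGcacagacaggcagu
AC020916.1, miR-23a-3p: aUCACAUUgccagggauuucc
AC020916.1, miR-27a-3p: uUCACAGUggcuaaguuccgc
AC020916.1, miR-24-3p: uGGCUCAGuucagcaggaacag
AC004687.1, miR-142-3p: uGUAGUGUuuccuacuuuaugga
AL034397.3, miR-223-3p: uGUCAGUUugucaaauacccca
CYTOR and MIR4435-2HG, miR-4435: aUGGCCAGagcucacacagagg
The miR-15a and miR-16 of DLEU2 share the seed AGCAGCA, and the seed of MIR503HG's miR-503-5p is AGCAGCG. MIR222HG's miR-221-3p and miR-222-3p share GCUACAU. CYTOR and MIR4435-2HG hold the same microRNA.

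The libraries held between 12410668 and 15099788 gene-assigned reads, and all 150 genes had reads in each of them, at least 18. The number of genes with a read was 25322 in DNMAML with IL-4 replicate 3 and 23179 in IRES unstimulated replicate 3, against 21067 to 21557 in the other 16 libraries, from which both stand apart, and counts of calls were also made without these 2. HES4, a Notch target, lay at 3.41 ± 1.27 CPM in unstimulated IRES cells, 15.1 ± 3.24 in NIC1 and 2.65 ± 0.305 in DNMAML (SD, n = 3). Of 8 monocyte and macrophage markers 7 had a mean over 1 CPM, and of 7 erythroid and megakaryocyte markers none did, with HBB and PF4 at 0. Of 8 T cell markers 4 had a mean over 1 CPM, led by TRAC. Their sum ranged from 76.6 to 162 CPM and was higher with NIC1 (unstimulated mean 147 CPM) than with IRES (97.1 CPM) or DNMAML (94.0 CPM). Of 7 fibroblast and epithelium markers 3 had a mean over 1 CPM, led by COL1A1, and their sum ranged from 87.6 to 178 CPM. Of 5 B cell markers 2 did, with a sum of 7.40 to 16.8 CPM. In bulk RNA, fewer cells of a type and less RNA per cell cannot be told apart.

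MALAT1 and NORAD led by far. MALAT1 (11:65497688-65506516, plus strand, GRCh38, 1 exonic block) had a mean of 883 CPM and NORAD (20:36045622-36050960, minus strand) 610 CPM. MALAT1 alone took 12.8% of all lincRNA and antisense reads, both together 21.6%, the first 12 genes 35.6% and the 150 genes 68.1%. FGD5-AS1 followed at 205 CPM, then AC008105.3 (now FMNL1-DT) at 135, MEG3, an imprinted growth-suppressing RNA, at 133, and NEAT1 at 123 CPM. CCDC144NL-AS1 had 84.8 CPM, and EBLN3P, SNHG7, ITGB2-AS1, HCG18 and ZFAS1 had between 54.5 and 60.4 CPM. Per kilobase of exon, which takes length into account, NORAD came first (114 CPM per kb) and MALAT1 next (100.1). SNHG8 (50.1), BX640514.2 (41.3) and FGD5-AS1 (40.0) followed. The length is that of all annotated exons of a gene merged, whether or not these cells used them. MEG3 and NEAT1, with 23224 and 22767 exonic bases, fell to places 63 and 66 of 150 on that scale (5.71 and 5.39 CPM per kb). Ranking all genes of these types per kilobase would keep 91 of the 150.

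**Figure D1:**
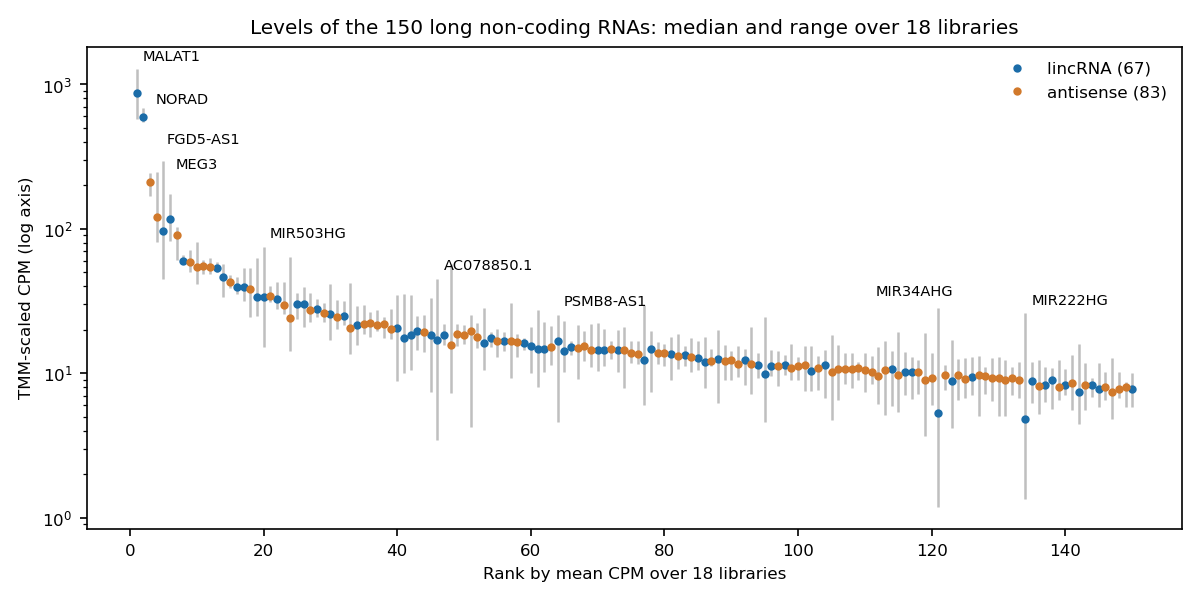
TMM-scaled CPM (log axis) of each of the 150 genes against its rank by mean CPM; points are the median and grey bars the lowest and highest of 18 libraries. MALAT1 and NORAD stand above the rest, and MIR34AHG, MIR222HG, MEG3 and AC078850.1 have bars far longer than their neighbours'.

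From library to library most of these RNAs varied less than 2-fold, though no such ratio is given here for all genes. On the TMM scale (CPM with library sizes scaled by edgeR's trimmed mean of M values, used for all values from here on), the highest library was less than 2 times the lowest for 94 of 150 genes, with a median ratio of 1.78. EBLN3P lay between 56.9 and 65.7 CPM, AC005332.6 between 50.1 and 58.9, and MAPKAPK5-AS1 between 14.4 and 17.6 CPM in all 18 libraries. NORAD lay between 549 and 690 CPM, with 30.3% of its 50-base stretches found in other annotated transcripts too, mostly OVCH1-AS1. At the other end were MIR34AHG (1.18 to 28.3 CPM), MIR222HG (1.35 to 26.0 CPM) and AC078850.1 (3.46 to 45.1 CPM).

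The members are long, and many overlap coding genes. Their exonic length had a median of 3370.5 bases (323 to 23224), against 896 for the 7102 other lincRNA and antisense genes with a read; a count per gene grows with length. An exon structure of 1 block was about as common, in 21.3% against 20.5%. Of the 150, 88 overlap a protein-coding gene on the opposite strand, and 75 share exonic bases with it. Whether the counting used strand is not given in the sources used here, so reads from such a pair may be mixed. Starts of 50 lie within 1000 bp of a coding start, 18 of them divergent, and those of 31 lie more than 50000 bp from any.

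The question of the first comparison is how 3 h of IL-4 changed these RNAs, taken as the mean of the 3 constructs. AC078850.1 rose 5.24-fold, MIR503HG, the host of miR-503, 2.11-fold and KIF25-AS1 2.04-fold. Smaller rises were seen in LINC01588, JMJD1C-AS1, LINC00649, LINC01137, PSMG3-AS1, AL035446.1, AC144831.1 and OTUD6B-AS1. The falls were smaller: LINC00926, AL354719.2, ST3GAL6-AS1, AC037459.3, SBF2-AS1, AC125603.2 and CARD8-AS1 fell by at most 0.60 on the log2 scale. That makes 11 genes higher and 7 lower of 150 (edgeR quasi-likelihood test, adjusted p under 0.05 over 15037 genes), or 12%, against 10.2% of all genes tested (5.64% higher and 4.58% lower), so their share was near the background. The median change was -0.04 for the members and -0.01 for all genes. With the experiment number as a block, 19 rose and 24 fell, against 10.5% and 11.4% of all genes. Without the 2 libraries that stand apart 15 were called without the block, where 7.94% of all genes were, and SBF2-AS1, AC125603.2 and CARD8-AS1 were lost.

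**Figure D2:**
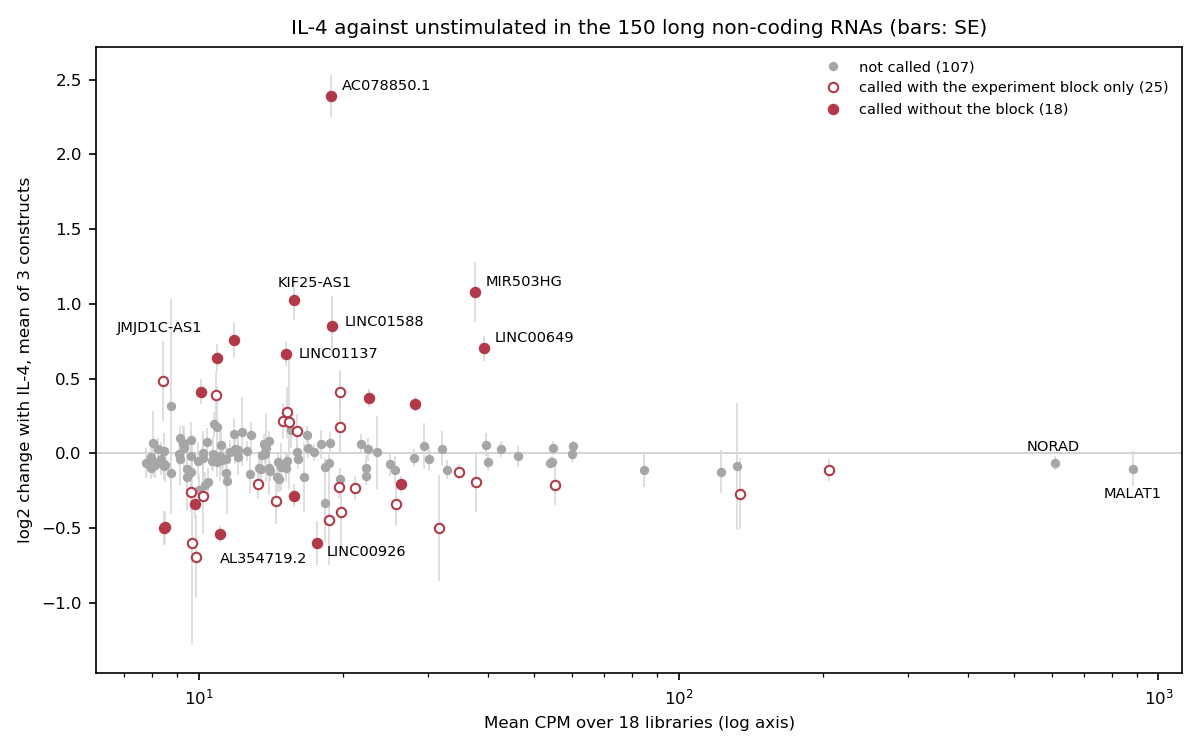
Log2 change with IL-4 (mean of 3 constructs, bars: SE) against mean CPM (log axis) for the 150 genes. AC078850.1, at 2.39, lies apart from all others; MALAT1 and NORAD, at the right, lie near 0.

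AC078850.1 (4:128567972-128570531, minus strand, lincRNA, 2 exonic blocks) has no symbol of its own. Its level was 4.79, 7.50 and 6.55 CPM in the unstimulated IRES libraries and 33.5, 36.7 and 33.7 CPM with IL-4. NIC1 libraries held 9.58, 5.49 and 7.68 CPM, and 45.1, 26.0 and 31.4 CPM with IL-4. In DNMAML the values were 3.46, 6.0 and 4.21, and 24.7, 28.3 and 26.6 CPM. The lowest IL-4 library was thus more than 2 times the highest unstimulated one, and no library with IL-4 overlapped one without. All its unstimulated values except 9.58 CPM lay under the 7.75 CPM mean of the last member. Its IL-4 libraries therefore carried it into the list, and its place among the members that rose is not independent of that. The log2 change was 2.39 ± 0.138 (SE, adjusted p = 4.29e-09), with 2.46 ± 0.238 in IRES, 2.17 ± 0.234 in NIC1 and 2.54 ± 0.244 in DNMAML, each called and each kept in all leave-one-out fits. No coding gene overlaps it, and the nearest coding start is that of JADE1, a gene for a scaffold subunit of histone acetyltransferase complexes, 239092 bp away on the other strand, which rose by 1.31 ± 0.081 (adjusted p = 7.80e-09). The first 150 bases of its 1623-base transcript in GENCODE are printed because it is the strongest responder.
AC078850.1: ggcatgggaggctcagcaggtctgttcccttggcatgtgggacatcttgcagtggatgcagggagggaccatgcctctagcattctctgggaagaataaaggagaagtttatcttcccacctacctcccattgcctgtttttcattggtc

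MIR503HG (X:134543337-134546632, minus strand) lay between 15.3 and 34.1 CPM (median 22.3) in the 9 unstimulated libraries and between 33.8 and 75.4 (median 46.7) in the 9 with IL-4, so the ranges overlap slightly, but within experiment and construct it was higher with IL-4 in 9 of 9 pairs. Pairs are matched by construct and experiment number, and the labels do not say that a pair came from 1 culture. Here and below, pair counts come from the same libraries as the calls, so they describe the calls and add no separate support. The log2 change of MIR503HG over the 3 constructs was 1.08 ± 0.200 (adjusted p = 0.00201). In single constructs it was not called without the block, while with the block the adjusted p was 0.0301 in IRES and 0.0227 in DNMAML. The sequence of miR-503-5p stands above beside those from DLEU2. DLEU2 itself, the host of miR-15a and miR-16, was not called with IL-4 in either fit.

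KIF25-AS1 (6:167992822-167997077, minus strand), typed lincRNA although it lies across KIF25, measured 13.9, 8.08 and 9.74 CPM in unstimulated IRES libraries and 25.6, 17.1 and 18.7 with IL-4. In NIC1 it went from 11, 8.20 and 11.8 to 21.2, 15.6 and 23.4 CPM, and in DNMAML from 12.5, 7.98 and 9.93 to 27.5, 18.5 and 22.6 CPM. Every IL-4 library exceeded every unstimulated one, and experiment 2 was lowest in each group. The log2 change was 1.03 ± 0.138 (adjusted p = 7.26e-05). KIF25, a kinesin gene with which it shares 207 exonic bases, changed by 0.34 ± 0.255 and was not called (adjusted p = 0.563).

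LINC00649 (21:33915534-33977691, plus strand, 19 exonic blocks) went from 33.9, 24.5 and 33.3 CPM to 53.4, 42.9 and 52.8 in IRES, from 27.8, 24.4 and 31.2 to 47.4, 41.4 and 50.6 in NIC1, and from 31.7, 26.4 and 35.6 to 53.7, 45.0 and 50.3 in DNMAML. Again no IL-4 library lay within the unstimulated range. The change was 0.70 ± 0.083 (adjusted p = 1.76e-05), while ATP5PO, an ATP synthase subunit gene across which it starts, changed by 0.05 ± 0.065 (adjusted p = 0.797).

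LINC01137 (1:37454879-37474411, minus strand, now ZC3H12A-DT) measured between 9.16 and 13.8 CPM (median 11.5) without IL-4 and between 16.2 and 21.4 (median 19.1) with it, and the ranges did not overlap. It rose by 0.67 ± 0.083 (adjusted p = 3.17e-05). LINC01588 went from a median of 13.5 CPM (7.46 to 19.2) to 22.8 (16.7 to 33.3), JMJD1C-AS1 from 8.24 (7.15 to 11.4) to 13.0 (11.8 to 20.9), PSMG3-AS1 from 8.26 (6.78 to 11) to 14.1 (11.6 to 14.4) and OTUD6B-AS1 from 24.6 (22.5 to 27.2) to 30.6 (27.7 to 35.9). All 4 were higher with IL-4 in 9 of 9 matched pairs, counted in the libraries that gave their calls. For LINC01588 the ranges overlapped, since experiment 2 lay above the other experiments in every group, while for the other 3 they did not. Their log2 changes were 0.85 ± 0.202, 0.76 ± 0.121, 0.64 ± 0.093 and 0.33 ± 0.047.

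AL354719.2 (6:63806836-63822642, plus strand, now SCAT8) had the lowest adjusted p of the genes that fell. It measured 12.5, 13.3 and 12.8 CPM in unstimulated IRES cells and 8.67, 7.51 and 8.02 with IL-4. NIC1 libraries held 11.8, 12.3 and 11.1, then 8.03, 8.30 and 7.96 CPM. DNMAML libraries held 13.8, 15.4 and 14.9, then 10.4, 11.6 and 11.1 CPM. Within each construct no library with IL-4 reached the unstimulated range, and DNMAML lay above the other constructs under both conditions. The change was -0.54 ± 0.054 (adjusted p = 3.17e-06). It lies within EYS, on the other strand, with no shared exonic base.

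LINC00926 (15:57300365-57307769) went from a median of 22.5 CPM (14.3 to 28.3) to 14.8 (10.6 to 18.1), ST3GAL6-AS1 (3:98714330-98732651) from 9.93 (7.53 to 13.3) to 6.74 (5.58 to 8.70), and AC037459.3 from 9.84 (8.05 to 12.4) to 7.36 (5.26 to 8.49). The ranges overlap in each, but within matched pairs all 3 were lower with IL-4 in every one, the count of higher pairs being 0 of 9. Their log2 changes were -0.60 ± 0.149 (adjusted p = 0.0144), -0.50 ± 0.115 (0.00818) and -0.49 ± 0.107 (0.0054). CARD8-AS1 fell by 0.21 ± 0.053, SBF2-AS1 by 0.34 ± 0.097 and AC125603.2 by 0.28 ± 0.078; the last 2 calls held in 5 and 7 of 18 leave-one-out fits.

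**Figure D3:**
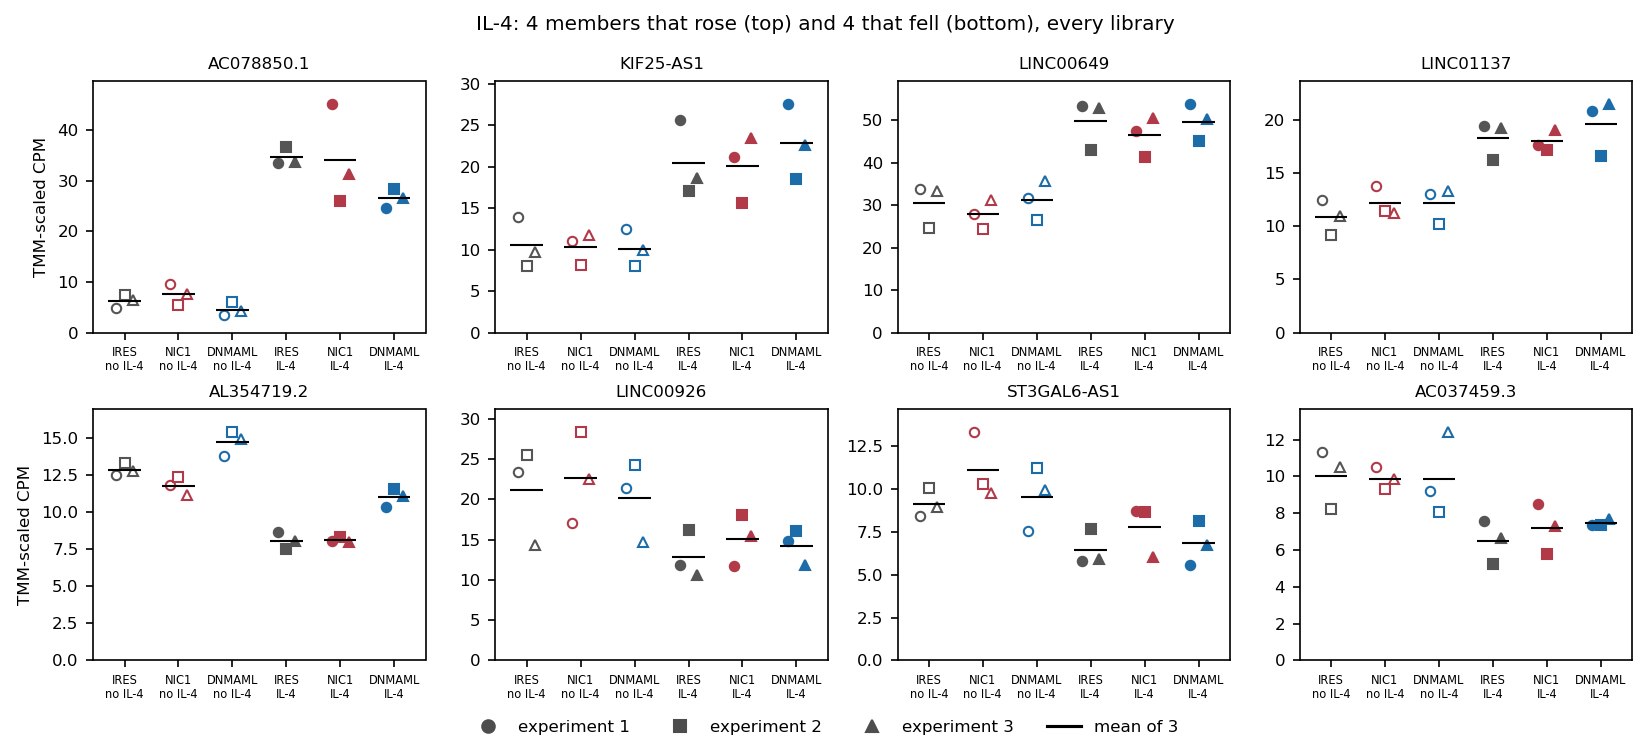
TMM-scaled CPM in every library for 4 genes that rose (top) and 4 that fell (bottom) with IL-4; open symbols are unstimulated, filled symbols IL-4, shapes the experiment, bars the mean of 3. The top 4 show no overlap between open and filled symbols within a construct.

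The experiment block added 8 genes that rose and 17 that fell. Among the added rises were CYTOR (0.41 ± 0.145, blocked adjusted p = 3.06e-05, 0.0946 without the block), CEBPA-DT (0.39 ± 0.163, blocked 0.000243), AL137003.2 (0.48 ± 0.268, blocked 1.87e-05) and LINC01215 (0.28 ± 0.169, blocked 0.000673). The added falls included 3 microRNA hosts. DNM3OS, the host of miR-199a and miR-214, changed by -0.69 ± 0.278 (blocked adjusted p = 0.0148), MIR34AHG by -0.60 ± 0.680 (blocked 0.00726) and AC020916.1, now MIR23AHG, by -0.50 ± 0.356 (blocked 0.000274). DNM3OS and MIR34AHG were lower with IL-4 in all 9 matched pairs. DNM3OS went from 8.13, 16.4 and 12.5 CPM to 3.68, 12.6 and 9.26 in IRES, so the 2 conditions overlap across experiments. FGD5-AS1, the third most abundant member, was lower in every matched pair too, but only by 0.11 on the log2 scale (SE 0.072, blocked adjusted p = 0.0104). MALAT1 (-0.10 ± 0.117), NORAD (-0.06 ± 0.050), NEAT1 (-0.12 ± 0.144) and MEG3 (-0.09 ± 0.424) were called in neither fit.

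Each construct was then tested alone. In IRES cells 6 members rose and 1 fell (background 2.02% and 0.911% of all genes), in NIC1 cells 6 and 1 (2.25% and 0.798%) and in DNMAML cells 8 and 1 (2.15% and 1.12%). As a share of the 150, the calls came to 4.67%, 4.67% and 6.0%, against 2.93%, 3.05% and 3.28% of all genes. AC078850.1, KIF25-AS1, LINC00649, LINC01137 and PSMG3-AS1, 5 genes, rose in each of the 3, and AL354719.2 fell in each. In all, 9 were called at least once. How many of all genes were called in each of the 3 is not given here, without or with the block. Such recurrence is therefore not read as a trait of the members. The 3 comparisons share no library, but they come from 1 fit with a shared estimate of the spread. Libraries of the same experiment number also varied together across constructs, so the 3 are not fully independent. JMJD1C-AS1 was called in IRES and DNMAML (0.84 ± 0.209 and 0.83 ± 0.208) and OTUD6B-AS1 in NIC1 and DNMAML (0.39 ± 0.081 and 0.32 ± 0.081). With the block, 12 rose and 4 fell in IRES (background 4.87% and 4.18%), 13 and 8 in NIC1 (5.13% and 3.66%), and 14 and 5 in DNMAML (5.01% and 4.94%; 12 in all without the 2 libraries that stand apart, where 6.69% of all genes were called), with 10 genes higher in all 3 and 2 lower. Without the 2 libraries that stand apart, 4, 4 and 2 members were called, against 1.88%, 2.75% and 1.95% of all genes. They were AC078850.1 in each, KIF25-AS1 in DNMAML, LINC00649, AL354719.2 and LINC01137 in IRES, and LINC00649, OTUD6B-AS1 and AL354719.2 in NIC1.

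Whether the IL-4 response itself differed between constructs was tested as a difference of responses. No member was called in any of the 3 differences, without or with the block, where 0.0% of all genes were called in either fit, and 0 were called without the 2 libraries that stand apart. At an unadjusted p under 0.05 in edgeR there were 0 members for NIC1 minus IRES (0.805% of all genes), 0 for DNMAML minus IRES (0.652%) and 3 for NIC1 minus DNMAML (1.42%), and DESeq2 called none. With the block there were 5 (2.43% of all genes), 0 (1.58%) and 3 (4.06%). The 3 were in both fits ZFAS1 (-0.26 ± 0.095), SNHG8 (-0.39 ± 0.171) and ZSCAN16-AS1 (-0.52 ± 0.244), and the 5 for NIC1 minus IRES were the same genes with SNHG7 and LINC01215, all chosen after their values were seen. For AC078850.1 the difference was -0.29 for NIC1 minus IRES (95% interval -0.93 to 0.35), 0.08 for DNMAML minus IRES (-0.57 to 0.73) and -0.37 for NIC1 minus DNMAML (-1.02 to 0.28).

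Where a member starts beside a coding gene, the 2 can be set side by side. LINC01137 and ZC3H12A, which encodes the RNA-degrading regulator regnase-1, start 141 bp apart and point away from each other: the coding gene rose by 1.09 ± 0.183 (adjusted p = 0.000862) and LINC01137 by 0.67. CEBPA-DT and CEBPA, a gene for a myeloid transcription factor, start 293 bp apart, and CEBPA rose by 1.05 ± 0.121 (adjusted p = 1.76e-05) where CEBPA-DT changed by 0.39. OTUD6B-AS1 and OTUD6B, a deubiquitinase gene, start 7 bp apart and rose by 0.33 and 0.81 ± 0.073 (adjusted p = 7.94e-07). In these 3 the coding gene changed more. Over all 18 divergent pairs within 1000 bp, Pearson's r of the log2 changes with IL-4 was 0.933 and Spearman's rho 0.742. In 13 of the 18 pairs both log2 changes had the same sign. Within IRES, NIC1 and DNMAML cells r was 0.840, 0.858 and 0.897, while rho was lower, at 0.612, 0.540 and 0.585. The signs were the same in 12, 9 and 14 of the 18 pairs. How far r rests on the large changes of the 3 pairs named above was not tested. It is therefore not read as a trait of divergent pairs in general. Between constructs r ran only from -0.024 to 0.231. All these values are across gene pairs in the same libraries and carry no test.

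Members that overlap a coding gene were set beside it in the same way. Over 91 pairs of 80 members and a tested coding gene on the other strand, r was 0.412 and rho 0.409. ST3GAL6-AS1 fell with ST3GAL6, a sialyltransferase gene (-0.83 ± 0.062, adjusted p = 9.91e-08), with which it shares 107 exonic bases. PSMG3-AS1 rose with PSMG3, a proteasome assembly gene (0.41 ± 0.043, adjusted p = 4.30e-06), with 60 shared bases. JMJD1C-AS1 rose while JMJD1C, a demethylase-family gene, changed by -0.08 ± 0.040 (adjusted p = 0.306). AC037459.3 fell while CCAR2, with 1397 shared bases, changed by 0.08 ± 0.040 (adjusted p = 0.26). STXBP5-AS1 changed by 0.07 beside STXBP5 at 0.62.

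**Figure D4:**
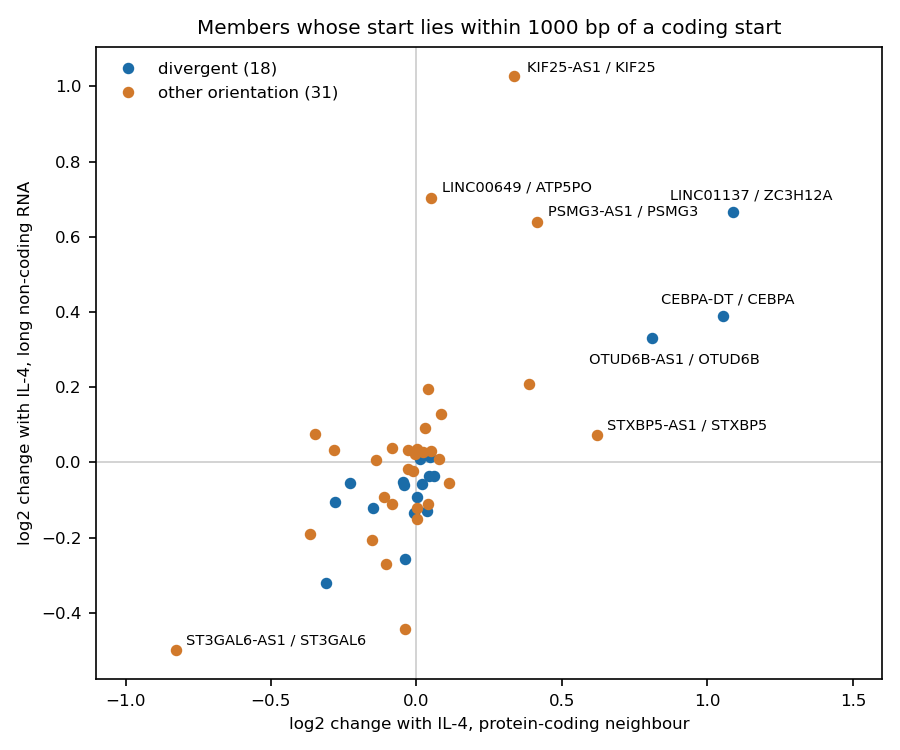
Log2 change with IL-4 of 49 members against that of the protein-coding gene whose start lies within 1000 bp, 18 of them divergent (blue) and 31 in another orientation (orange). LINC01137, CEBPA-DT and OTUD6B-AS1 lie at the upper right with their neighbours, ST3GAL6-AS1 at the lower left, and KIF25-AS1 and LINC00649 rise with neighbours near 0.

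Constructs were compared next, first NIC1 with the empty vector, to see which of these RNAs followed raised Notch signalling. The paired lincRNAs AC112721.1 and AC112721.2 were 2.04-fold to 2.26-fold higher with NIC1, and the related CYTOR and MIR4435-2HG 1.35-fold to 1.5-fold higher, but none of the 150 was called without the block in unstimulated or IL-4-treated cells, where 0.233% and 0.200% of all genes were. At an unadjusted p under 0.05 in edgeR there were 8 and 9 members, against 7.12% and 5.95% of all genes, shares close to or above those of the members, and DESeq2 called none. With the block, 9 were higher and 1 lower under each condition, against 3.44% and 1.94% of all genes unstimulated and 3.77% and 1.67% with IL-4. Without the 2 libraries that stand apart the blocked counts were 7 and 8, where 3.69% and 4.9% of all genes were called.

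AC112721.2 (2:237428920-237434822, minus strand) measured 8.42, 12.8 and 10.8 CPM in unstimulated IRES libraries and 18.4, 29.9 and 19.8 in NIC1; with IL-4 the values were 6.96, 12.6 and 12 in IRES and 18.9, 28.0 and 17.4 in NIC1. The groups did not overlap, and experiment 2 was highest in each. The log2 difference was 1.09 ± 0.313 unstimulated (adjusted p = 0.3, blocked 5.21e-05) and 1.03 ± 0.313 with IL-4 (0.361, blocked 5.99e-05). AC112721.1 (2:237421420-237425276) differed by 1.05 ± 0.383 (blocked adjusted p = 0.000121) and 1.18 ± 0.384 (blocked 4.39e-05). Both lie on the strand of COL6A3, a collagen VI gene, with starts 10901 bp (AC112721.1) and 20447 bp (AC112721.2) from its own, and COL6A3 differed by 0.80 ± 0.210 unstimulated (adjusted p = 0.218, blocked 4.09e-06) and 0.99 ± 0.211 with IL-4 (0.0856, blocked 3.67e-07).

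CYTOR (2:87454781-87636740, plus strand) and MIR4435-2HG (2:111036776-111523376, minus strand) are related copies on either side of the centromere. Of the 50-base stretches in CYTOR's transcripts 24.4% occur elsewhere among annotated transcripts, mostly in MIR4435-2HG, and 22.8% of those in MIR4435-2HG do, mostly in CYTOR, so reads of the 2 can be confused or left unassigned. CYTOR measured 12.8, 21.6 and 12.2 CPM in unstimulated IRES cells, 23.7, 26.8 and 17.0 in NIC1 and 12.9, 16 and 10.0 in DNMAML. With IL-4 it measured 17.1, 26.2 and 17.9, then 30.0, 35.6 and 26.3, then 14.7, 21.0 and 16 CPM. Within every experiment NIC1 was highest. Against IRES the log2 difference was 0.53 ± 0.252 unstimulated (adjusted p = 0.708, blocked 0.00488) and 0.59 ± 0.248 with IL-4 (0.73, blocked 0.00118). For MIR4435-2HG it was 0.43 ± 0.301 (blocked adjusted p = 0.00736) and 0.57 ± 0.299 (blocked 0.000671).

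Their start regions are shown because the 2 genes moved together and the deposited counts cannot separate shared stretches. The windows are the RefSeq ones (GRCh38.p14, 250 bases before to 50 after the start), chr2:87455177-87455476 on the plus strand for CYTOR and chr2:111495112-111495411 on the minus strand for MIR4435-2HG. Capitals mark a match to TTCNNNGAA, a STAT-type motif, and to TGGGAA, the core bound by RBPJ.
CYTOR: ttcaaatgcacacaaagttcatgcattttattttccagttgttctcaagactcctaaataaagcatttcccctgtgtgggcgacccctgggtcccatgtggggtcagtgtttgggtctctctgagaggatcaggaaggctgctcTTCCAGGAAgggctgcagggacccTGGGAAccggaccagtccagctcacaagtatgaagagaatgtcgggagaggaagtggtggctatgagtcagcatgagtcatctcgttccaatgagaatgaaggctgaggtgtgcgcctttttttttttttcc
MIR4435-2HG: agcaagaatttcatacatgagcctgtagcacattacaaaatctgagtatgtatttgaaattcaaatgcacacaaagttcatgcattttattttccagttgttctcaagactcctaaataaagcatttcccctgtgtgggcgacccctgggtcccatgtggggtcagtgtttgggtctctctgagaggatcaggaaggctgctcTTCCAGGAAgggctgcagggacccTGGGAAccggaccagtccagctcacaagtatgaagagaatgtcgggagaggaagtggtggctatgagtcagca
Shifted by 59 bases, the windows are identical over all 241 bases that can be compared. Of the 150 genes, 98 matched 119 windows by symbol, and both strands were searched. TTCNNNGAA was found in 5.88% of the 119 windows and in 7.66% of all 35116 windows, the STAT6-type motif, with the same ends TTC and GAA set 4 bases apart, in 5.04% and 6.44%, and TGGGAA in 15.1% and 24.0%. Among the 11 members with a window that rose with IL-4 under the block, 4 held TTCNNNGAA (CYTOR, MIR4435-2HG, PSMB8-AS1 and LINC01215), of which the first 2 are the same stretch of sequence, and 0 held the STAT6-type motif. Of the 16 that fell under the block, 0 held TTCNNNGAA and 2 the STAT6-type motif. Of the 4 with a window that rose without the block, 0 held either. A match is a run of letters, not a measured binding site.

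The remaining members higher with NIC1 than with IRES under the block were AL139393.2, AC147651.3, AC093895.1 and BX640514.2 in both conditions, AC004687.1 only unstimulated and LINC02244 only with IL-4, though no difference between conditions was called. AL139393.2, now MAP3K4-AS1, measured 8.13, 26.6 and 16.1 CPM in unstimulated IRES and 19.2, 57.3 and 28.5 in NIC1 cells, higher within each experiment although the ranges overlap. It differed by 1.05 ± 0.521 (blocked adjusted p = 0.00484), and MAP3K4, with which it shares 357 exonic bases, by 0.43 ± 0.124 (blocked 0.000132). AC004687.1, now MIR142HG, the host of miR-142 that marks blood cells, differed by 0.51 ± 0.426 (blocked 0.0429). PSMB8-AS1, which lies across the immunoproteasome gene PSMB8, was the 1 member lower with NIC1, by -0.44 ± 0.779 (blocked 0.0406) and -0.49 ± 0.765 (blocked 0.0146). The summed T cell markers, given above unstimulated, moved with NIC1 with IL-4 too (125 CPM, against 88.0 in IRES and 83.8 in DNMAML), and their part in the differences of NIC1 from either construct was not tested.

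DNMAML against IRES changed none of the 150 past the threshold, without or with the block, under either condition. At an unadjusted p under 0.05 in edgeR there were 3 members unstimulated (AC125603.2, AL365181.3 and LOXL1-AS1; 2.47% of all genes) and 3 with IL-4 (AC125603.2, AL354719.2 and AL365181.3; 2.37%), named after their values were seen, and DESeq2 called 0 and 0. With the block 9 and 13 members passed that unadjusted threshold, against 8.19% and 7.75% of all genes. Among all genes 0.0% were called without the block, and with it 0.146% unstimulated and 0.0931% with IL-4. Without the 2 libraries that stand apart the members called were 0 in either fit.

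NIC1, the active receptor, was last compared with DNMAML, the construct made to block the pathway. Without the block 1 member was called unstimulated and 3 with IL-4, against 1.65% and 1.44% of all genes. AC125603.2 (12:116661582-116698065, plus strand, lincRNA) measured 22.1, 19.7 and 22.6 CPM in unstimulated NIC1 and 13.6, 12.4 and 13.9 in DNMAML, with IRES between them at 20.2, 14.2 and 17.7 CPM. With IL-4 it measured 18.6, 17.5 and 15.0 in NIC1 and 13.0, 10.8 and 10.1 in DNMAML. NIC1 and DNMAML libraries did not overlap. The log2 difference was 0.69 ± 0.135 (adjusted p = 0.0157) and 0.59 ± 0.136 (0.0386); both calls held in 1 of 6 leave-one-out fits, and without the 2 libraries that stand apart the adjusted p was 0.0274 and 0.26.

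LINC02244 (15:99395179-99396593, minus strand), the shortest member at 323 exonic bases, measured 11.7, 10.3 and 9.67 CPM in NIC1 with IL-4 and 6.27, 6.44 and 6.03 in DNMAML, and 11.5, 10.4 and 9.60 against 5.86, 7.76 and 6.92 unstimulated. It differed by 0.76 ± 0.153 with IL-4 (adjusted p = 0.0199) and 0.61 ± 0.153 unstimulated (0.0576, blocked 0.0054). AL354719.2, described above for its fall with IL-4, was lower in NIC1 than in DNMAML with IL-4, by -0.44 ± 0.095 (adjusted p = 0.0279), and its difference unstimulated was -0.32 ± 0.093 (0.109, blocked 0.0287). Without the 2 libraries that stand apart neither passed with IL-4 in the fit without the block (0.1 for LINC02244 and 0.145 for AL354719.2).

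With the block, 13 members were higher in NIC1 than in DNMAML and 9 lower unstimulated (7.37% and 6.48% of all genes), and 14 and 14 with IL-4 (7.30% and 5.29%). Without the 2 libraries that stand apart, 1 of which is in the IL-4 comparison, the blocked counts were 22 unstimulated and 12 with IL-4, where 13% and 8.25% of all genes were called; with IL-4, AC112721.1, AC112721.2, MIR4435-2HG, CYTOR, LINC02244, AC125603.2, AL365181.3, LINC00461 and AL354719.2 were among the 12. Among the highest were AC112721.1 (1.06 ± 0.382 and 1.31 ± 0.387), AL139393.2, AC112721.2, MIR4435-2HG (0.93 ± 0.305 and 0.82 ± 0.301) and CYTOR (0.79 ± 0.254 and 0.83 ± 0.249). AL034397.3, now MIR223HG, the host of the myeloid microRNA miR-223, differed by 0.59 ± 0.271 (blocked adjusted p = 0.0479) and 0.82 ± 0.273 (blocked 0.00746, and 0.0741 without the 2 libraries). Members lower with NIC1 under both conditions were STXBP5-AS1, AL365181.3, PSMB8-AS1, LINC00654, AL354719.2 and LINC00461, the host of miR-9, at -0.32 ± 0.132 under both. With IL-4 the list also held 3 small nucleolar RNA hosts, SNHG8 (-0.33 ± 0.121, blocked 0.0316), SNHG7 (-0.26 ± 0.089, blocked 0.0196) and ZFAS1 (-0.20 ± 0.067, blocked 0.0307); none of these 3 passed without the 2 libraries (blocked adjusted p = 0.268, 0.17 and 0.254). These comparisons share libraries with those against IRES, so their lists are not independent.

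**Figure D5:**
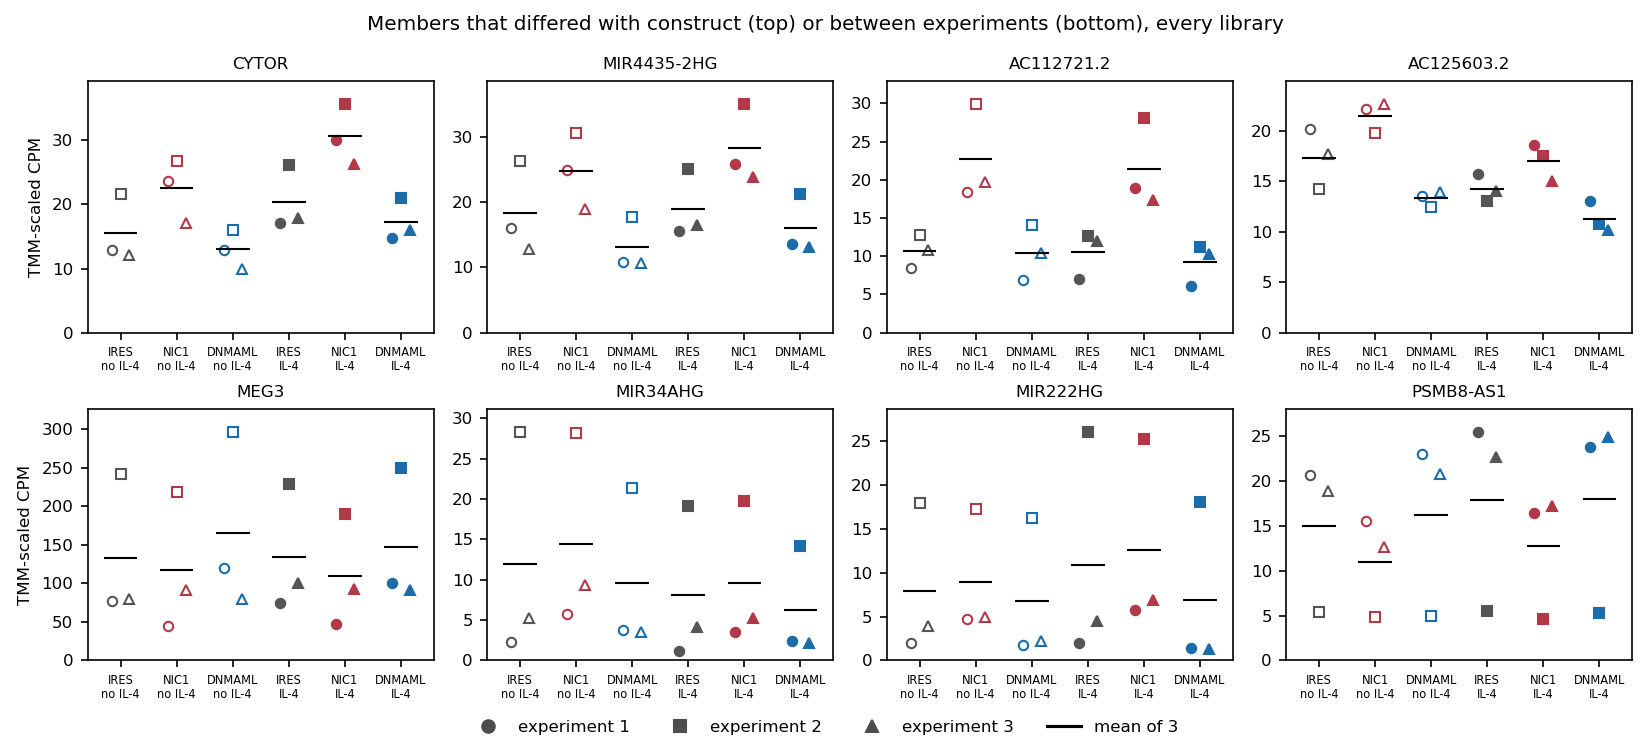
TMM-scaled CPM in every library for 4 genes that differed with construct (top) and 4 that differed between experiments (bottom); open symbols are unstimulated, filled symbols IL-4, shapes the experiment, bars the mean of 3. NIC1 lies highest within each experiment in the top row, and in the bottom row experiment 2 (squares) lies apart in all groups.

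Several members differed between experiments whatever the construct or condition. MIR222HG, the host of miR-221 and miR-222, averaged 2.94, 20.1 and 3.97 CPM in experiments 1, 2 and 3, with 16.2 to 26.0 CPM in the 6 libraries of experiment 2 and at most 6.92 elsewhere. MIR34AHG, the host of the p53-induced miR-34a, averaged 3.16, 21.8 and 4.93 CPM. MEG3 averaged 77.5, 237 and 88.9 CPM, and AC020916.1 19, 53.1 and 24.4 CPM. PSMB8-AS1 went the other way, with 20.9, 5.11 and 19.5 CPM. After group means were removed, the experiment means spread over more than 1 on the log2 scale for 10 members (6.67%), against 3.29% of all genes tested, and the median spread was 0.29 against 0.22. Both values describe these libraries only, and the labels do not say what an experiment number stands for beyond its number. The mean that chose the members counts experiment 2 too. By their median over the 18 libraries, MIR222HG (4.84 CPM) and MIR34AHG (5.35 CPM) lie under the 7.75 CPM mean of the last member. Such genes can enter the list through the spread described, so the share for members and that for all genes are not a like comparison.

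Of small nucleolar RNA hosts 25 were tested, of which ZFAS1, SNHG7, SNHG8, SNHG12, SNHG15 and EPB41L4A-AS1 are members. With IL-4 none was called without the block, against 10.2% of all genes. With the block 1 rose (SNHG17) and 2 fell (SNHG14 and EPB41L4A-AS1), against 10.5% and 11.4% of all genes, around a median of 0.02. Of 18 microRNA hosts tested by name, 1 rose, MIR503HG, and 1 fell, MIR3142HG (-1.29 ± 0.185, adjusted p = 0.000132), the host of miR-146a and no member here; with the block 2 rose and 3 fell. Of 10 myeloid and immune lncRNAs tested only MIR222HG is a member; MIR3142HG was the 1 that fell, and 3 fell with the block. Of 8 growth-linked lncRNAs, CYTOR and MIR4435-2HG were the 2 higher with NIC1 than with IRES under the block. Neither of the 2 nuclear body RNAs (MALAT1 and NEAT1), none of 4 p53-linked (among them MEG3 and NORAD), none of 4 chromatin and imprinted RNAs (among them JPX) and not the Notch-linked NALT1 were called with IL-4, or between NIC1 and IRES, in either fit. The same IL-4 shares of all genes stand beside the counts of every list. For NIC1 against IRES under the block, 3.44% were higher and 1.94% lower unstimulated, and 3.77% and 1.67% with IL-4. The lists are too short for their counts to be read as a trait of a list.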

How the data were processed

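RNA was extracted from THP-1 cells and made into TruSeq libraries, per the labels' protocols. The authors deposited raw counts of reads per Ensembl gene, not normalized, 1 file a library. The submitters' processing notes name FastQC, Trimmomatic, HISAT2, HTSeq and DESeq2 with GRCh38.p12; versions, annotation and strand setting: not given in the sources used here. Rows that name no gene (23.8% to 30.9% of reads) were left out. Types and coordinates (GRCh38) are from GENCODE release 29, in which 57447 of 58051 genes were found.

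The 150 members and the gene lists were chosen with earlier results of these data known. All 18 libraries entered 1 fit of 6 group means: edgeR 4.0.16 (R 4.3.3), filterByExpr (15037 genes), TMM, robust quasi-likelihood test, Benjamini-Hochberg adjustment over all genes in each of 13 contrasts, threshold 0.05. Errors of log2 changes are standard errors. The calling step was tested on simulated data. Alternatives were DESeq2 1.42.0, other scaling and filters, blocks and left-out libraries. Nothing in the labels ties the 3 libraries of a group to separate cultures; a p-value here covers library-to-library spread, technical or not.

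Experiment numbers paired the libraries: deviations from group means correlated in all 45 same-number pairs (r 0.206 to 0.759, median 0.466). In 90 others r ran from -0.654 to 0.354, with a median of -0.395. Deviations cancel within a group, which pushes these others towards negative values, so they are no separate contrast. Log2 changes beside a blocked p are from the unblocked fit. Both fits treat libraries of 1 construct and number as independent.

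Named genes are the 12 most abundant, the called members with the largest changes (12 up and 8 down per IL-4 contrast, 10 each way per construct contrast, without or with the block), list members, the edge of the list, and overlapping coding genes.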

Additional observations from a re-analysis of the deposited data

How the results depend on the processing

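The count of members called with IL-4 over the 3 constructs, 18, became 43 with the replicate block. It became 55 with a replicate block by construct and number (29.6% of all genes). With the replicate block but without the 2 libraries in which most genes were detected it became 35 (18.8%). In the same order, 7 calls in IRES became 16, 30 (15% of all genes) and 12 (6.55%). The 7 in NIC1 became 21, 35 (14.3%) and 19 (8.52%), and the 9 in DNMAML became 19, 32 (17%) and 12 (6.69%). For NIC1 against IRES, 0 became 10 with the block under both conditions. Without those libraries it became 7 unstimulated (3.69% of all genes) and 8 with IL-4 (4.9%). For NIC1 against DNMAML, 1 unstimulated became 22, and 22 without those libraries (13% of all genes). The 3 with IL-4 became 28, and 12 without them (8.25%). Fitting only the groups compared left 1 call in IRES, 3 in NIC1, 2 in DNMAML and 0 in both NIC1 against DNMAML contrasts. Leaving out the 2 libraries without a block gave 4, 4 and 2 for IL-4 in IRES, NIC1 and DNMAML (1.88%, 2.75% and 1.95% of all genes). For NIC1 against DNMAML with IL-4 it gave 0 (0.467%). Without a filter on low counts NIC1 had 4 calls with IL-4, and DESeq2 gave 5 and 8 for NIC1 against DNMAML. For these settings, and for the fits of only the groups compared, shares of all genes are not given here. Those counts therefore describe the members only.

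Leaving out 1 library at a time gave 16 to 19 calls for IL-4 over constructs, 3 to 7 in IRES, 4 to 5 in NIC1 and 1 to 6 in DNMAML. For NIC1 against DNMAML it gave 0 to 1 unstimulated and 0 to 2 with IL-4, and every other contrast stayed at 0. Shares of all genes are not given for these fits either, so the ranges describe the members only. Of the single genes, AC020916.1, at -0.48 for IL-4 in NIC1, ran from -0.98 without NIC1 with IL-4 replicate 2 to 0.057 without NIC1 unstimulated replicate 2. MIR222HG, at 0.89 for NIC1 against DNMAML with IL-4, ran from -0.10 without NIC1 with IL-4 replicate 2 to 3.20 without DNMAML with IL-4 replicate 2; neither passes without the block. Ranking per kilobase kept 91 of the 150 genes, by median CPM 148. The added blocks by construct and number and the block without 2 libraries were chosen after seeing the data. The smallest member count in a library was 18 reads, which limits the precision of the lowest values. The cause of the differences between settings was not tested.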
